A study of Mus musculus with 10 samples.

Results

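The genes described here are 10 genes of the eye lens: the crystallin genes Cryaa, Cryba1, Cryba2, Cryba4, Crybb1 and Crybb3, and the fibre cell genes Mip, Lim2, Bfsp1 and Bfsp2. They were taken by gene symbol from the platform annotation, 1 probe set per gene, out of 19938 measured genes, and each of the 10 has 1 probe set. They were chosen by their measured signals, which were high together in 1 of these arrays and set the mutant against control difference, so the values of these 10 genes are given as a description and not as a test. The study measured RNA of mouse periotic tissue, the otic vesicle with the mesenchyme around it, at embryonic day 12.5. The 5 mutants were T-Cre conditional Tbx1 knockouts and the 5 controls were T-Cre conditional Tbx1 heterozygotes, so both groups carried T-Cre and the controls had already lost an allele of Tbx1 in the cells where the recombinase acts. T-Cre acts in the early mesoderm, so otic epithelium, which is of ectodermal origin, lies outside its main domain. Each array holds 1 embryo, with tissue of the left and right sides pooled.

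Crystallins are the soluble proteins that fill the lens and give it its refractive power. Alpha crystallins are small heat shock proteins that act as chaperones, and beta and gamma crystallins are structural proteins of a shared superfamily. When cells at the back of the lens vesicle elongate into fibres they switch on beta and gamma crystallins and then genes of the fibre membrane and cytoskeleton. The lens forms from surface ectoderm next to the optic cup and is no part of the ear.

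Of the 10 genes, 3 stood more than 1 log2 unit above every other array in the array of mutant 1, and so did the gamma crystallin gene Cryga, which is not among the 10. No other of the 19938 genes did so in mutant 1. The RefSeq promoter windows of these 4 genes are shown because the genes were high together. Each window runs from 250 bases before to 50 bases after the transcription start in GRCm38.p6 and is written 5′ to 3′ on the gene's own strand. Capitals mark TGCTGA, the core letters bound by large MAF transcription factors, which drive crystallin genes in lens fibres. The windows are Cryaa at chr17:31677681-31677980 on the plus strand, Cryba1 at chr11:77725244-77725543 on the minus strand, Crybb1 at chr5:112255570-112255869 on the plus strand and Cryga at chr1:65103314-65103613 on the minus strand.
Cryaa: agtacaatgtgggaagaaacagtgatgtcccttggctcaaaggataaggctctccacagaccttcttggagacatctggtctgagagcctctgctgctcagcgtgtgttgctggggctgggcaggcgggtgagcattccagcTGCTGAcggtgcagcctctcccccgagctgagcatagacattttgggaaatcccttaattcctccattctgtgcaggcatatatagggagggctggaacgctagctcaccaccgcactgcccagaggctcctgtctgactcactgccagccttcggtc
Cryba1: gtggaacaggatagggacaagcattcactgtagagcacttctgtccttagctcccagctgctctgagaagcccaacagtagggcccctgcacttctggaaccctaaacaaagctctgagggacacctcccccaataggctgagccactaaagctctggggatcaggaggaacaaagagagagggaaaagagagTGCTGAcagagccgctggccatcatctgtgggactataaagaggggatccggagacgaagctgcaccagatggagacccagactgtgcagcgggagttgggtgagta
Crybb1: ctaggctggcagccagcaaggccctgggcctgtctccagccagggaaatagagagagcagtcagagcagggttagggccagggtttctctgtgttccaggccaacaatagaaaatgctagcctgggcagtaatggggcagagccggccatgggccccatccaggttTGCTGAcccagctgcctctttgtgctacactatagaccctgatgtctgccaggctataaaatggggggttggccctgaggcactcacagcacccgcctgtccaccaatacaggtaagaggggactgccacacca
Cryga: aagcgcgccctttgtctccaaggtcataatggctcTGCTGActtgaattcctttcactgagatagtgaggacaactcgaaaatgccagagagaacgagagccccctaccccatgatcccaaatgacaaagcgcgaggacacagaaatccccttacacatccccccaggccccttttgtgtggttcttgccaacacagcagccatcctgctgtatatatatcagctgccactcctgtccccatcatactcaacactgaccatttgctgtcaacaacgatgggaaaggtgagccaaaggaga
Bfsp2 at chr9:103449127-103449426 on the minus strand is set beside them because its signal in mutant 1 was 5.78 against up to 5.77 elsewhere. It is also the 1 gene of the 10 whose window lacks the motif on both strands. Motif and signal did not always go together. The 4 genes above hold the motif, but Bfsp1 and Crygs, which were not highest in mutant 1, hold it too, on the opposite strand. Crygd, which was highest in mutant 1, lacks it on both strands. The contrast with Bfsp2 therefore does not show that the motif goes with the signal.
Bfsp2: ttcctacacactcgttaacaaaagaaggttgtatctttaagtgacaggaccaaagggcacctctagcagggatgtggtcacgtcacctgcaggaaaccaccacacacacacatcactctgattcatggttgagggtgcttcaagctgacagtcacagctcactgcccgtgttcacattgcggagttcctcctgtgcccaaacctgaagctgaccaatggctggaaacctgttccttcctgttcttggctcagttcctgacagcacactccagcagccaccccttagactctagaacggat

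TGCTGA or its reverse complement TCAGCA occurred in the windows of 9 of the 10 genes and of 4 of the 9 other lens crystallin genes with a window, against 21.7% of 27025 genes with a window of this length. The longer form TGCTGAC, which contains TGCTGA, occurred on either strand in 4 of the 10 genes (Cryaa, Cryba1, Cryba4 and Crybb1) and in Cryga, against 5.28% of all genes. Counted from the transcription start, the match began at base -108 in Cryaa, -57 in Cryba1, -84 in Crybb1 and -215 in Cryga. Cryba4 had 3 TGCTGA matches, of which 2 were the longer form. The TATA box letters TATAAA, read on both strands, were found in 4 of the 10 windows against 15.7% of genes, and ACAAT, the core bound by SOX factors, in 4 against 34.4%. The TATAAA match began at base -23 in Cryba1 and -30 in Crybb1, but at -3 in Cryba2 and Mip, so the count is not one of TATA boxes. These counts describe letters in the windows, and the arrays did not measure binding of any factor.

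Cryaa encodes alpha A crystallin, the lens-restricted member of the small heat shock proteins. Its RMA signal (probe set 10443830, log2 scale) was 11.19 in mutant 1 and 5.81, 5.86, 5.56 and 5.59 in mutants 2 to 5. The controls, from 1 to 5, read 5.54, 5.73, 5.97, 5.85 and 5.67. Mutant 1 stood alone, and the other 4 mutants lay inside the range of the controls. The signal in mutant 1 was 44.1-fold above the median of the other 9 arrays, whose standard deviation was 0.15 on the log2 scale. It was 37.4-fold above the highest of them. These folds are ratios of array signal. The Cryaa readings of the other 9 arrays lay above those of Y-linked probe sets in female embryos, 3.12 to 4.36. They lay below the array medians over all probe sets, 6.19 to 6.27, so they do not show that Cryaa was expressed there. In RefSeq (GRCm38.p6) the gene models of Cryaa, Cryba1, Crybb1 and Mip span chr17:31677931-31681730, chr11:77718614-77725293, chr5:112254563-112269585 and chr10:128225810-128231812.

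The acidic beta crystallins differed in how far mutant 1 stood apart. Cryba1, which encodes beta A1 and beta A3 crystallin, read 8.72 in mutant 1 and 4.75, 5.33, 4.98 and 4.93 in mutants 2 to 5. In controls 1 to 5 Cryba1 read 4.67, 4.53, 5.14, 4.40 and 4.89. Again only mutant 1 left the common range, 14.2-fold above the median of the other 9 arrays, while mutant 3 was the next highest. Cryba2 read 6.32 in mutant 1 against 5.49 to 5.89 in the other arrays, a ratio of 1.63 to their median. Cryba4 read 6.23 in mutant 1 against 5.43 to 5.86, a ratio of 1.42. Both were highest in mutant 1, by a margin over the next array of 0.43 for Cryba2 and 0.37 for Cryba4 on the log2 scale.

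Crybb1 and Crybb3, of the basic beta crystallins, were also highest in mutant 1. Crybb1, an early product of differentiating fibres, read 10.15 in mutant 1 and 6.87, 7.05, 6.83 and 6.82 in mutants 2 to 5. In controls 1 to 5 it read 7.12, 6.88, 6.98, 7.01 and 6.93. The signal of Crybb1 in mutant 1 was 9.29-fold above the median of the other 9 arrays, and the other mutants and the controls overlapped. Crybb3 read 7.53 in mutant 1 and between 6.08 and 6.56 in the other 9 arrays, with control 3 the next highest, a ratio of 2.42 to their median. In the RefSeq annotation the models of Cryba4 and Crybb1 overlap by 9063 bases on chromosome 5, with Cryba4 on the minus and Crybb1 on the plus strand. The transcription starts used for their promoter windows, which are not the ends of these models, lie 3302 bases apart. Whether their probe sets can read each other's transcripts was not tested, and in mutant 1 Crybb1 was 3.22 and Cryba4 0.51 above the median of the other arrays on the log2 scale.

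**Figure D1:**
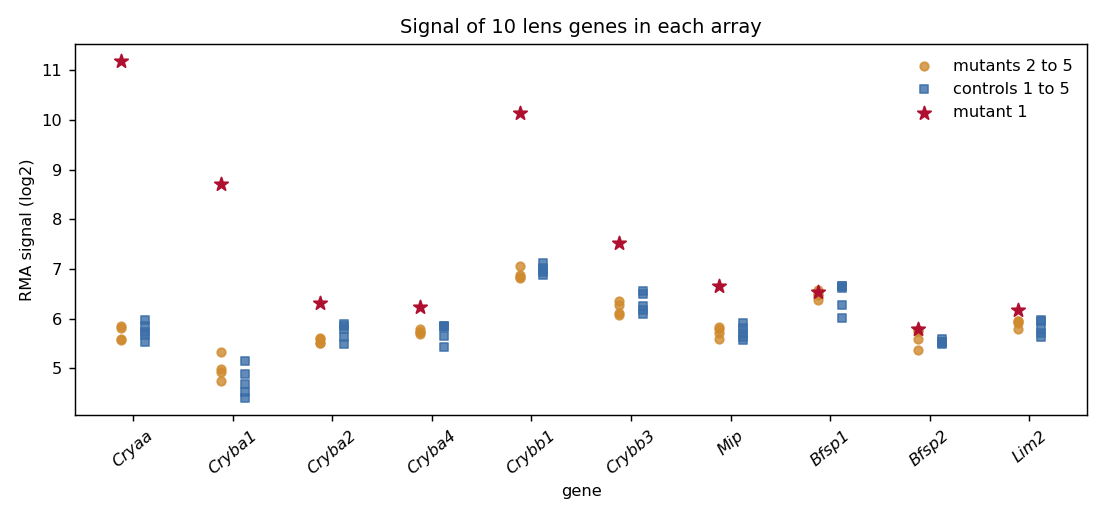
RMA signal on the log2 scale (vertical axis) of the 10 lens genes (horizontal axis) in each array, with mutant 1 as a star, mutants 2 to 5 as circles and controls 1 to 5 as squares. Cryaa, Cryba1 and Crybb1 of mutant 1 lie at 11.19, 8.72 and 10.15, far above the cluster of the other 9 arrays, while Bfsp1 of mutant 1 lies inside it.

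Among the genes of the fibre membrane and cytoskeleton, Mip stood apart in mutant 1 and the other 3 did so by little or not at all. Mip, or aquaporin 0, the main water channel and an adhesion protein of the fibre membrane, read 6.67 in mutant 1 and 5.58, 5.78, 5.84 and 5.70 in mutants 2 to 5. In controls 1 to 5 it read 5.62, 5.70, 5.91, 5.81 and 5.58, so that mutant 1 was again alone, at 1.95-fold the median of the others. Lim2, another abundant fibre membrane protein, read 6.18 in mutant 1 and 5.63 to 5.98 elsewhere, a margin of 0.19 on the log2 scale over the next array. Bfsp2, or phakinin, read 5.78 in mutant 1 and 5.38 to 5.77 elsewhere, a margin of 0.01. Bfsp1, or filensin, which forms the beaded filament of fibres together with phakinin, was not highest in mutant 1. It read 6.55 there, the fifth highest of the 10 arrays, within a range of 6.01 in control 2 to 6.66 in control 4. The 6 crystallins and Mip were thus clearly higher in 1 array, and Bfsp1, Bfsp2 and Lim2 showed at most a slight excess there.

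The mean log2 signal over the 10 genes was 7.53 in mutant 1 and 5.82, 6.003, 5.82 and 5.88 in mutants 2 to 5. It was 5.87, 5.82, 6.05, 5.88 and 5.76 in controls 1 to 5. Mutant 1 stood 1.66 above the median of the other 9 arrays, whose standard deviation was 0.09, and it was the highest array for 9 of the 10 genes. Over all genes it was the highest array for 11.8%. The 10 genes ranked by how far mutant 1 exceeded the highest other array held places 1, 2, 3, 5, 7, 13 and 18 among the 19938 genes (Cryaa, Cryba1, Crybb1, Crybb3, Mip, Cryba2 and Cryba4), then 148 for Lim2, 2010 for Bfsp2 and 6807 for Bfsp1.

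How far the genes moved together rested on that 1 array. Over all 10 arrays the 45 pairs of genes had a median Pearson correlation of 0.72, from 0.05 to 0.99, and a median Spearman correlation of 0.47. Among the 5 genes that exceeded every other array by over 0.5 in mutant 1, the 10 pairs had Pearson correlations of 0.92 to 0.99. Over the other 9 arrays the median Pearson correlation of the 45 pairs was 0.25, from -0.25 to 0.82, and that of the 10 pairs was 0.21, from 0.02 to 0.65. The median Spearman correlation over those 9 arrays was 0.37. These are descriptions over 10 or 9 arrays that share 1 normalization, and the genes were chosen in view of them. Control 3, whose 10-gene mean was the highest after mutant 1, also had the highest median over all probe sets, 6.27 where the arrays ranged down to 6.19.

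Lens genes outside the 10 showed the same array. Of the 9 other lens crystallin genes that were measured, 6 were highest in mutant 1 and 3 exceeded every other array by over 0.5. Cryga, a gamma crystallin of the cluster on chromosome 1, read 8.39 in mutant 1 and 5.51, 5.56, 5.47 and 5.59 in mutants 2 to 5. In controls 1 to 5 Cryga read 5.84, 5.70, 5.74, 5.60 and 5.51. Mutant 1 was 6.97-fold above the median of the others, and no other array left their range. Crygc read 5.72 in mutant 1 and 4.54 to 4.89 elsewhere, and Crygd read 4.48 against 3.29 to 3.94. The Crygd readings of the other 9 arrays lay within those of Y-linked probe sets in female embryos, 3.12 to 4.36, which serve as a measure of background. Crygn read 6.78 against 5.91 to 6.41.

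The remaining crystallins did not stand apart. Cryab, the alpha crystallin that muscle and many other tissues also make, read 8.29 in mutant 1 inside a range of 7.90 to 8.69. Crybb2, the neighbour of Crybb3, read 6.88 inside a range of 6.55 to 7.01. Crygs, a gamma crystallin of later fibres, read 4.81 in mutant 1 inside a range of 4.50 to 5.00, and the margins of Crygb and Crygf were 0.18 and 0.05. The 7 genes that carry a crystallin name but encode enzymes or other proteins, such as Crym, had a mean deviation of -0.05 in mutant 1 from each gene's median over the arrays, inside the -0.11 to 0.09 of the others.

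**Figure D2:**
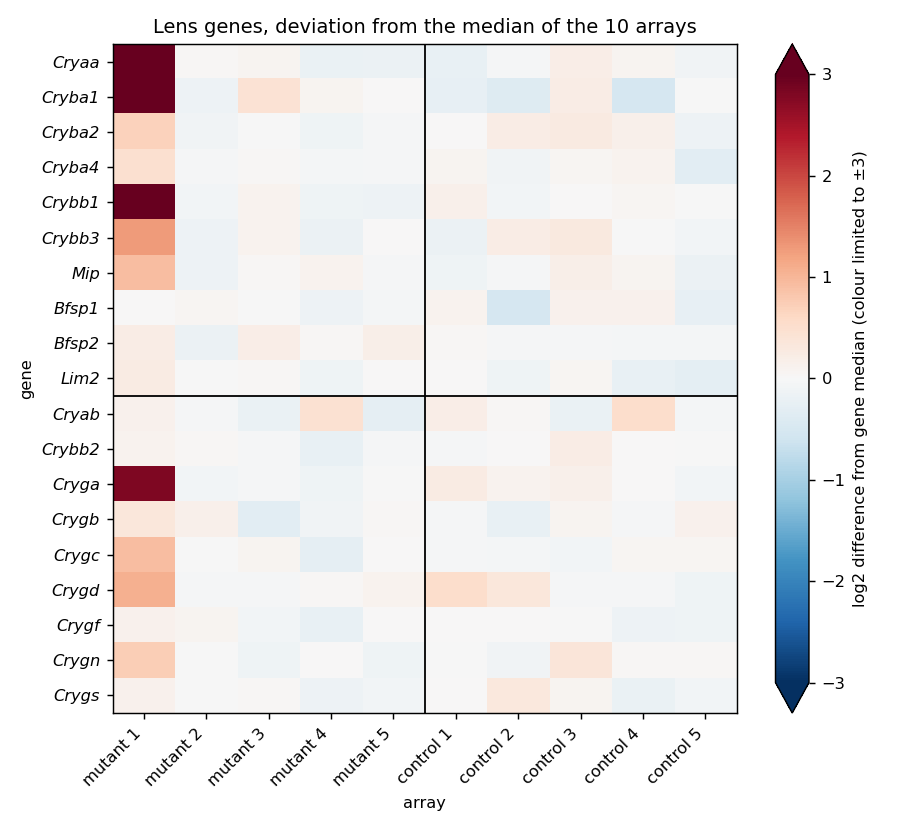
Deviation of each lens gene (rows, the 10 genes above the line and 9 other crystallin genes below it) from its median over the 10 arrays (columns, mutants left of the line and controls right), with colour limited to 3 log2 units either way. The column of mutant 1 is red for Cryaa, Cryba1, Crybb1 and Cryga, paler for Crybb3, Mip, Crygd, Crygc and Crygn, and near white for Bfsp1, Cryab, Crybb2 and Crygs.

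Other genes of lens fibres were slightly higher in mutant 1. The 19 measured genes of this list had a mean deviation of 0.16 in mutant 1 against -0.04 to 0.04 in the other arrays, and 6 of the 19 were highest there, where 11.8% of all genes were. This share of 31.6% was not particular to the fibre list. It was 30% for 10 genes of retinal pigment epithelium and 25% for 12 neuronal genes. For the lists of neural retina, pigment genes and cornea it was 5.6%, 0% and 0%. Gje1, a connexin of the lens, read 4.70 in mutant 1 and 3.97 to 4.21 elsewhere. Those other Gje1 readings lay within the Y-linked background of 3.12 to 4.36. Gja3, which encodes a connexin of fibre gap junctions, read 6.91 against 6.23 to 6.79, and Birc7 read 5.54 against 4.94 to 5.34. Dnase2b, the nuclease that clears DNA from fibres, read 4.71, inside the range of 4.52 to 4.85.

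Transcription factors and epithelial genes of the lens did not single out mutant 1. The 13 measured lens transcription factors had a mean deviation of 0.09 in mutant 1, below the 0.45 of mutant 5. Pax6, the central regulator of eye development that is also made in the hindbrain, read 5.90 in mutant 1, 6.55 in mutant 3 and 7.27 in mutant 5. Foxe3, specific to lens epithelium, read 7.23 in mutant 1 and reached 7.28 in control 3. Prox1 and Maf, which are needed for fibre differentiation, read 7.10 and 8.11 in mutant 1, inside ranges of 6.88 to 7.42 and 7.92 to 8.12. Hsf4, a heat shock factor of fibres, was highest in mutant 1, at 6.13 against 5.79 to 5.98. The 10 lens epithelium genes had a mean deviation of 0.00 in mutant 1, inside the -0.09 to 0.06 of the other arrays.

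Markers of other eye tissues were inside the common range in mutant 1. The mean deviation was 0.02 for the 18 genes of neural retina and optic cup, where the other arrays ran from -0.06 to 0.15. For the 10 genes of retinal pigment epithelium it was -0.06, inside -0.45 to 0.37, and for 13 pigment genes -0.03, inside -0.14 to 0.10. For the 14 genes of cornea, eyelid and periocular tissue it was -0.01, inside -0.26 to 0.13. Some of these genes are also expressed in periotic tissue or brain, so the lists are not exclusive to the eye. Aldh1a1, made in dorsal retina, was higher in mutants 1 and 3 than elsewhere, with 7.34 and 7.73 against 5.87 to 6.46.

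Genes of the labelled tissue read above a low background in every array. All 17 measured otic vesicle genes and all 11 periotic mesenchyme genes read above the Y-linked background of 4.36 in all 10 arrays. So did all 10 lens genes, all 10 lens epithelium genes and all 18 genes of neural retina and optic cup. Passing this background therefore does not show which tissue an array held. In mutant 1 the mean deviation was -0.06 for the otic and -0.02 for the mesenchyme list, and for both lists it lay inside the range of the other arrays. Single genes departed from this. Oc90, otoconin 90, an otic epithelial secreted protein, read 8.35 in mutant 1 and 9.53 to 10.57 elsewhere. Hoxa5 read 6.57 in mutant 1 and 7.61 to 9.24 elsewhere. Oc90 and Hoxa5, named after their values were seen, were the 2 genes that lay below all other arrays by over 1 log2 unit in mutant 1. For neurons the mean deviation was 0.27 in mutant 1 and 0.56 in mutant 5. The hindbrain and neural tube list gave -0.06 and 1.12 in the same arrays. For olfactory and anterior placode genes it was 0.03 in mutant 1, inside -0.24 to 0.12. In such bulk tissue a change in the number of cells of a type and a change in RNA per cell cannot be told apart.

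**Figure D3:**
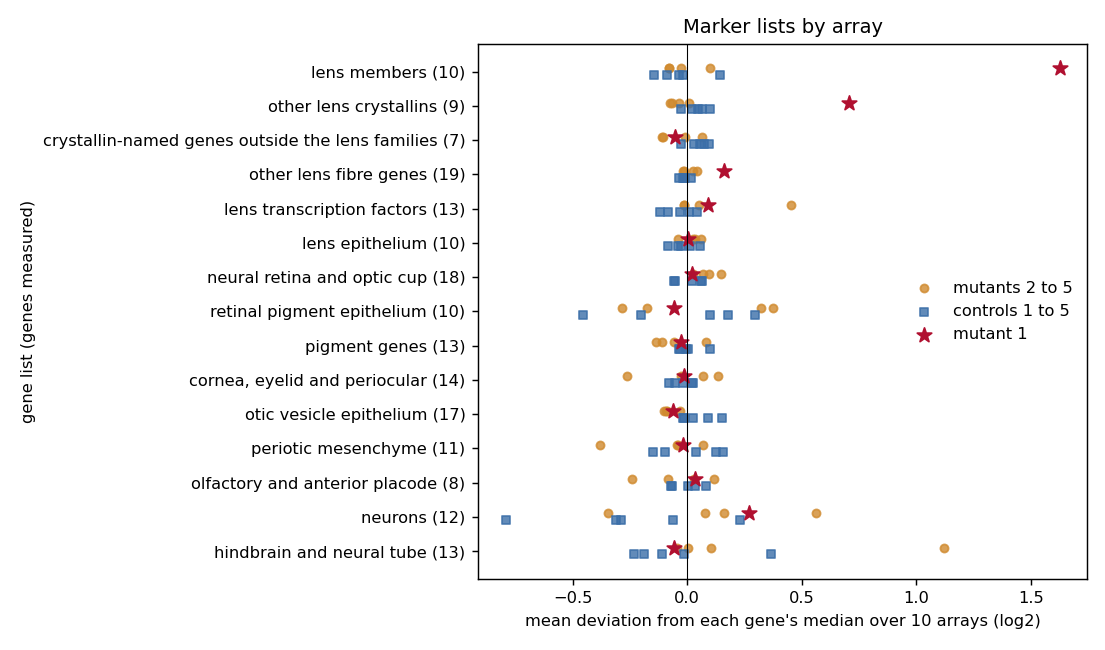
Mean deviation of each gene list from the genes' medians over the 10 arrays (horizontal axis, log2), with a star for mutant 1, circles for mutants 2 to 5 and squares for the controls; the number of measured genes is given with each list. Mutant 1 lies apart for the 10 lens genes (1.63), the other lens crystallins (0.70) and, less far, the other lens fibre genes (0.16), and inside the other arrays for the remaining eye lists.

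Only 10 genes exceeded every other array by more than 0.5 in mutant 1, and 8 of them were lens genes: Cryaa, Cryba1, Crybb1, Cryga, Crybb3, Crygc, Mip and Crygd. The others were S100a9, a calcium-binding protein of neutrophils (5.72 against 4.89 to 5.12), and Tbx22, a T-box factor of the palate and face (5.60 against 4.53 to 5.01), both named after their values were seen. By comparison 480 genes exceeded every other array by more than 0.5 in mutant 5, and the other arrays had 2 to 20. Mutant 1 correlated with the other arrays about as they did among themselves, with a median correlation over all genes of 0.994 against 0.989 to 0.995 for the other arrays.

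**Figure D4:**
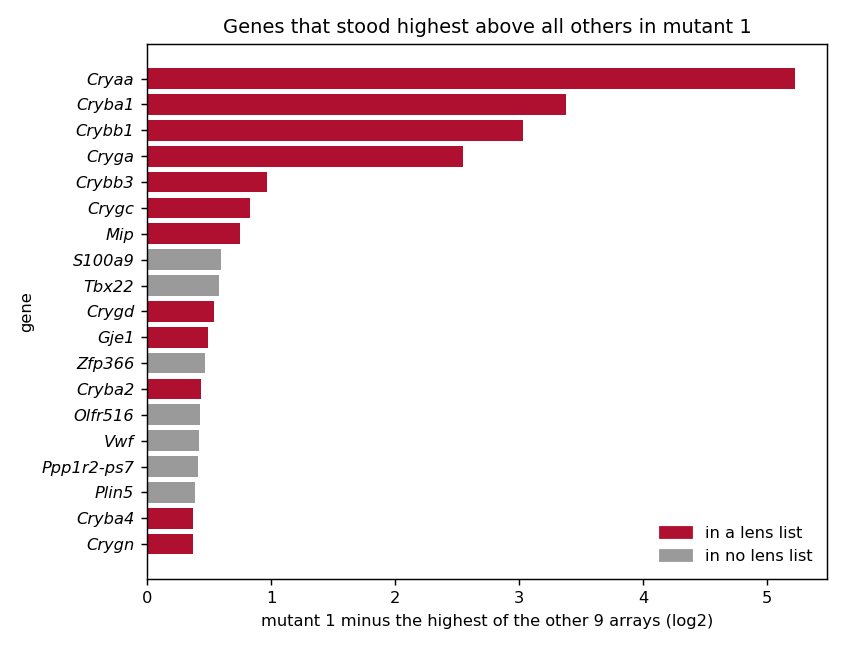
The 19 genes with the largest excess of mutant 1 over the highest of the other 9 arrays (horizontal axis, log2), in red if the gene is in a lens list and grey if not. The bars fall from 5.23 for Cryaa to 2.55 for Cryga and then to 0.97 for Crybb3, and the grey genes begin at 0.60 with S100a9.

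Among 319 genes outside the 10 whose highest array lay at least 1 log2 unit above their median, Cryga (Pearson correlation 0.99 over the 10 arrays) and Crygd (0.82) had the patterns most like the mean of the 10 genes. Over the other 9 arrays their correlations were 0.36 and -0.13. Next came Aldh1a1 (0.56) and Ccl19, a chemokine (0.49), followed by the Y-linked genes Uty (0.46) and Kdm5d (0.45), Nr1h5 (0.44), Cwc22 (0.40), Eif2s3y (0.35) and Esrrg (0.27). Mutant 1 was the 1 male embryo among the mutants, by Xist and the Y-linked genes. Controls 1 and 5 were male too, and their 10-gene means were 5.87 and 5.76, inside the 5.82 to 6.05 of the female arrays or below it. The part of sex, of the early gene signal and of low Oc90 and Hoxa5 in the lens signal of mutant 1 was not tested.

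Because mutant 1 belongs to the mutants, it set most of the difference between the groups. Averaged over the 10 genes, the mutants read 6.21 ± 0.74 (SD, n = 5). The controls read 5.88 ± 0.11 (SD, n = 5), lower by a log2 difference of 0.34. Without mutant 1 the mutant mean was 5.88 ± 0.08 (SD, n = 4) and the difference 0.01. Immediate early genes split both groups alike, with Fos at 8.82 to 9.08 in embryos 1 to 3 and 5.49 to 5.91 in embryos 4 and 5. Within embryos 1 to 3 the 10-gene difference was 0.54, within embryos 2 and 3 it was -0.02, and within embryos 4 and 5 it was 0.03. The median difference over all genes was -0.0021.

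Gene by gene, 9 of the 10 were higher in the mutants with all arrays and 6 without mutant 1. Over all 19938 genes these counts were 9794 and 9344. The mutants read 6.80 ± 2.46 (SD, n = 5) for Cryaa. Its control level was 5.75 ± 0.165 (SD, n = 5). Its log2 difference was 1.05 (95% interval of the limma fit -0.83 to 2.93) and became -0.05 (-0.27 to 0.18) without mutant 1. Crybb1 went from 0.56 (-0.56 to 1.68) to -0.09 (-0.27 to 0.08). Cryba1 went from 1.02 (-0.28 to 2.31) to 0.27 (-0.06 to 0.61) which was the largest difference of the 10 without that array. Crybb3 went from 0.15 to -0.11 and Mip from 0.19 to 0.00. Cryba2, with -0.02 and -0.17, was the gene that was lower in the mutants with all arrays. Counted from the most positive difference downward, Cryaa and Cryba1 ranked 3 and 4 among the 19938 genes with all arrays, and 12545 and 636 without mutant 1.

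**Figure D5:**
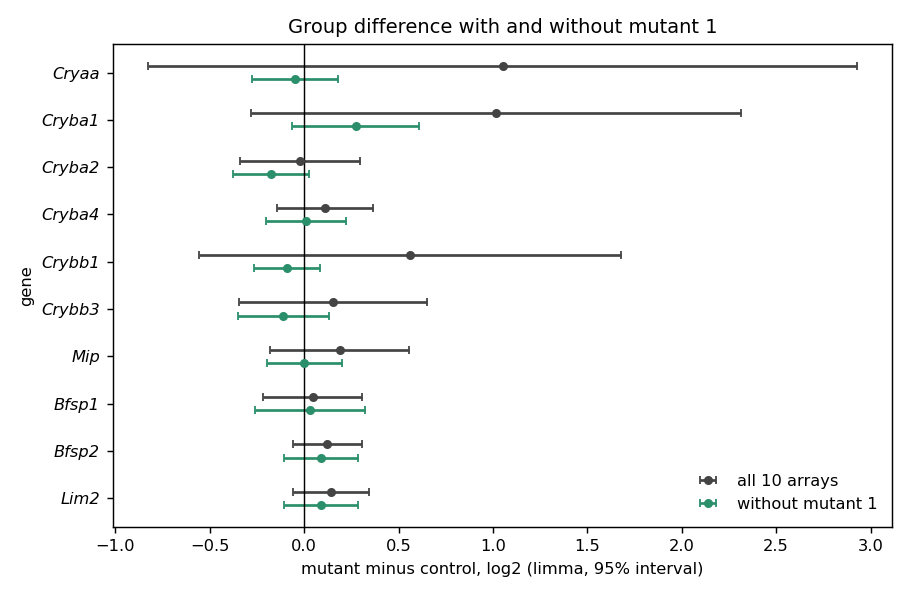
Difference of the mutant from the control mean on the log2 scale (horizontal axis) for each of the 10 genes, with the 95% interval of the limma fit, from all 10 arrays (dark) and without mutant 1 (green). For Cryaa, Cryba1 and Crybb1 the wide intervals around 1.05, 1.02 and 0.56 shrink around -0.05, 0.27 and -0.09 when mutant 1 is left out.

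None of the 10 genes passed the threshold of the limma fit across all genes (adjusted p under 0.05, Benjamini-Hochberg), and 0 had an unadjusted p under 0.05. The background is 0.01% of genes past the threshold, and 7.82% at an unadjusted p under 0.05. The groups overlapped for all 10, where they did not overlap for 1.83% of all genes. As the genes were chosen with these values known, nothing is read from these counts. Of the 28 other lens crystallin and fibre genes, 0 passed and Tdrd7 alone had an unadjusted p under 0.05. These genes were not among the 10, but their lists were also written with earlier results of these data known. Tdrd7, an RNA granule protein of fibres, had a limma log2 difference of 0.24 and an adjusted p of 0.572. No gene of the other lists passed either. Those of smallest p were Tfap2a (0.38) and Pax6 (0.70) among lens transcription factors, Epha2 (0.15) and Gpx3 (-0.17) in lens epithelium, and Rorb (0.30) and Atoh7 (-0.19) in retina, all as log2 differences. In the pigment epithelium they were Mitf (-0.13) and Rlbp1 (-0.11), among pigment genes Slc24a5 (-0.37) and Ednrb (0.38), and in cornea and periocular tissue Kera (0.54) and Foxc2 (-0.28). Outside the eye they were Crym (-0.37) and Cryl1 (-0.20), otic Dlx5 (-0.44) and Dlx6 (-0.45), mesenchymal Sox9 (-0.14) and Six2 (-0.24), and placodal Dlx3 (-0.53) and Ebf2 (0.17). Neuronal Neurod4 (0.74) and Elavl4 (0.56) and, in the hindbrain list, Pax3 and Pax6 (0.70 each) completed them. Cryga had a log2 difference of 0.42 (95% interval -0.56 to 1.41), which was -0.15 without mutant 1, with limma adjusted p of 0.826 and 0.632.

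The rest of the group comparison was refitted without mutant 1 and with the lens signal as a covariate. Both called genes, Nr1h5 and Sycp1, passed with all arrays, without mutant 1 and with the mean of the 10 genes as a covariate of the fit. That covariate was 7.53 in mutant 1 and 5.76 to 6.05 in the other arrays, so it mainly marks mutant 1. The covariate fit therefore nearly repeats leaving out mutant 1 and is no separate check. The Nr1h5 difference was 1.69 ± 0.12 (SE) with all arrays and 1.62 ± 0.11 in each of the other fits. Tbx1, the deleted gene, differed by -0.88 ± 0.17 (SE) with all arrays and by -1.03 ± 0.15 without mutant 1, whose Tbx1 signal of 8.40 was the highest of the mutants and above the 8.23 of control 4. The limma adjusted p of Tbx1 was 0.451 with all arrays, 0.110 without mutant 1 and 0.137 with the covariate. With all arrays kept, it was 0.085 with the replicate number as a block. A term for embryos 1 to 3 against 4 and 5 gave 0.083. The adjusted p of Tbx1 thus also moved in fits that kept mutant 1 and had no lens covariate, while its difference stayed at -0.88 in them. Among the 19928 genes outside the 10, leaving out mutant 1 moved the difference by a median of 0.02, and by over 0.5 for 5 genes. Besides Cryaa, Cryba1 and Crybb1, the genes moved upward most by mutant 1 were Uty (0.89), Kdm5d (0.60), Eif2s3y (0.57) and Cryga (0.57), and then the immediate early gene Fosb (0.40).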

How the data were processed

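Periotic RNA of 10 embryos was hybridised to the Affymetrix Mouse Gene ST 1.0 platform, with 1 embryo to an array. The deposited log2 values were made by the authors with RMA in Affymetrix Expression Console 1.1 according to the submitters' processing notes, and the log2 scale was read from their range. No genome build of the probe annotation was used here. The number of arrays limits the precision, and whether embryos of one number share a litter is not stated. Of 35557 probe sets, 21789 have 1 gene symbol in the platform annotation, 1621 have several and 12147 are not listed. RefSeq gene identifiers matched 21698. For a gene with several probe sets, that of highest mean signal was used, giving 19938 genes. Promoter windows came from RefSeq (GRCm38.p6).

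The group comparison was a limma 3.58.1 linear model (R 4.3.3) with variances moderated along a trend and two-sided p-values. These were adjusted by Benjamini-Hochberg across all 21789 probe sets, and 0.05 was the threshold. The code was tested on simulated data. The p-values measure the spread between these embryos. The 10 genes and all lists were chosen with earlier results of these data known. Named were the 10 genes, any measured gene of the lens lists, up to 6 genes past the threshold or else the 2 of smallest p in each other list, the 10 genes most like the mean of the 10 by Pearson correlation, and Tbx1. Alternatives changed the moderation, array weights, block, batch, filter, lens covariate, normalization, probe set rule and arrays used. Residual correlations of mutant and control with the same number were 0.110 to 0.236, and those of other numbers -0.382 to 0.385. Every same-number value exceeded 0.1, but other-number values reached 0.385. These correlations therefore do not settle whether the numbers pair the arrays. Unless a block is named, the printed differences, intervals and p-values come from the fit without it, and the fit with it was an alternative.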

Additional observations from a re-analysis of the deposited data

Results flagged for a closer look

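For groups of 5 arrays, the highest or lowest array was compared with the rest by Dixon's criterion. Chance marks about 1 in 20 groups. Of 92 groups 21 were marked, 14 of them for mutant 1. The 10 lens genes were chosen by these signals, so their marks are a description and no test. The other genes and lists were chosen with earlier results known, and S100a9 was named after its value was seen. Their marks are a description too, and the share marked cannot be set against chance. Among the 10 lens genes, mutant 1 stood apart from the other mutants for Cryaa (11.19), Cryba1 (8.716), Cryba2 (6.323), Cryba4 (6.23), Crybb1 (10.15), Crybb3 (7.526) and Mip (6.665), and for the mean of the 10 genes (7.531), all as log2 signal. Outside the 10 it stood apart for Cryga (8.392), Crygd (4.48), Crygn (6.779), Gje1 (4.7) and S100a9 (5.721), and for the mean deviation of the other lens crystallins (0.7043).

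Control 3 stood apart from the other controls for Crybb2 (7.013) and Crygn (6.41). Control 1 was low for Pitx3, a lens transcription factor (6.817), and high for the mean deviation of the pigment genes (0.0978). Mutant 5 stood apart for the mean deviation of the lens transcription factors (0.4529), of periotic mesenchyme (-0.3816) and of hindbrain and neural tube (1.119). Among 13768 probe sets outside the gene comparison, probe set 10500429, which the platform annotation used here does not list, read 6.549 in mutant 1 and 5.13 to 5.50 in the other arrays.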

How the results depend on the processing

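None of the 10 lens genes, and none of the 28 other lens crystallin and fibre genes, passed the limma threshold under any alternative run. The 2 genes past the threshold over all genes became 1 (Nr1h5) without dim probe sets or with arrays 1 to 3 only, and 0 with arrays 4 and 5 only; leaving out 1 array at a time gave 2 to 2. With the replicate number as a block the count was 2 and the difference of the 10-gene mean 0.34, and the block changed no call. That difference ran from 0.00689 (without mutant 1) to 0.43 when 1 array was left out, and was at least 0.31 when the array left out was not mutant 1. It was 0.36 after quantile normalization and 0.16 as a median over the 10 genes. The excess of mutant 1 was 1.66 on the log2 scale and 2.87 as the log2 ratio of summed linear signals, where the brightest genes weigh most. Readings near background limit what the dim genes, such as Crygd and Gje1, can show.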
